A study of Mus musculus with 3 samples.

Results

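The genes described here belong to the transforming growth factor beta (TGF-beta) system: the ligands Tgfb1, Tgfb2 and Tgfb3, the receptors Tgfbr1, Tgfbr2 and Tgfbr3, the latent TGF-beta binding proteins Ltbp1 and Ltbp3, the matrix protein gene Tgfbi and the inhibitor Smad7. They were chosen by name as sources, receivers and matrix storage of the ligand, and they are 10 of the 31053 genes counted. Each was read as counts of unique molecular identifiers (UMIs, counted transcripts) in the kept cells, the barcodes for which the authors also deposited normalized values, per tumor and per class of cells defined by marker genes. TGF-beta ligands are secreted bound to their own propeptide, and latent TGF-beta binding proteins tether this inactive complex to fibrillin in the extracellular matrix until integrins, proteases or thrombospondin release it. Free ligand binds the type II receptor, which recruits and activates the type I receptor; this phosphorylates Smad2 and Smad3, and Smad7 is induced as a feedback inhibitor. In solid tumors the pathway is known for activating fibroblasts and for restraining T cells and NK cells.

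The study profiled whole neuroblastomas of 3 TH-MYCN mice, heterozygous for a transgene in which the tyrosine hydroxylase promoter drives human MYCN, by droplet-based single-cell RNA sequencing. Tumors 1, 2 and 3 came from mice aged 62, 79 and 63 days, with 1 tumor and 1 library per mouse. There was 1 group, with no wild-type or treated animals, so every comparison below is between classes of cells of these tumors, and the tumor is the replicate. Of 3257, 4327 and 6038 barcodes, 1914, 1221 and 2515 were kept, holding 12628163, 2740537 and 5215401 UMIs at a median of 4282.5, 1594 and 1816 UMIs per kept cell. Tumors 1 and 2 shared 3 kept barcodes, tumors 2 and 3 shared 1, and tumors 1 and 3 shared 0.

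Clusters of kept cells were named from fixed marker lists, and each name means cells like that type by these transcripts. The kept cells fell into 12 classes, and 299 of the 5650 cells stayed unnamed. Tumor-like cells numbered 269, 940 and 2028 in tumors 1, 2 and 3, and all 10 of their markers, led by Stmn2, were detected in each tumor at a summed 2531, 2293 and 2422 counts scaled to a total of 1000000 UMIs (CPM). Macrophage-like cells numbered 612, 110 and 182, and neutrophil-like cells 236, 55 and 22. Endothelial-like cells numbered 44, 18 and 32, and cells like cancer-associated fibroblasts (CAF-like) 46, 10 and 36. Tumor 1 stood apart: tumor-like cells made up 14.1% of its kept cells, against 77.0% and 80.6% in tumors 2 and 3, and macrophage-like cells 32.0% against 9.01% and 7.24%. Tumor markers also reached the other classes in tumors 2 and 3, with a summed 664 and 873 CPM in macrophage-like cells, against 30.4 in tumor 1. Their part in the levels below was not tested.

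The CAF-like class was mixed. In a further clustering, 23, 3 and 2 of its cells in tumors 1, 2 and 3 matched the fibroblast markers, and 16, 1 and 4 the perivascular markers. Another 6, 2 and 10 cells met the naming rule for mesothelial markers, and 1, 4 and 20 cells stayed unnamed. The mesothelial-marker cells are not purely so: their mesothelial markers summed to 364 CPM (152 in fibroblast cells), and their perivascular and CAF markers to 5087 and 23266. The collagen-led CAF markers summed to 38517, 29060 and 12407 CPM over the class, lowest in tumor 3. In the unnamed subcluster they summed to 4557, the perivascular markers to 4989 and the 10 tumor markers to 1336. A further 16 cells of tumor 1 formed a mesothelial-like class of their own, with 7 of 7 mesothelial markers.

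All 10 genes were detected in each tumor, from 117 UMIs of Ltbp1 to 5898 of Tgfbi over all kept cells. Over all kept cells, Tgfb1 stood at 309 CPM in tumor 1, 69.7 in tumor 2 and 56.2 in tumor 3. The high value was that of the tumor with the largest share of macrophage-like cells. Levels below are those of a class in a tumor, for classes with at least 10 cells there. Their 95% intervals are exact Poisson intervals and cover counting error only.

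Tgfb1, the ligand best known for immune regulation, was held mainly by myeloid cells. In macrophage-like cells it stood at 430.3 CPM in tumor 1 (interval 414 to 447), 312 in tumor 2 (260.2 to 370.3) and 297 in tumor 3 (258 to 341). In tumor-like cells it stood at 14.8, 4.99 and 2.85 CPM. Every macrophage-like value lay above every tumor-like value. Plasmacytoid dendritic-like cells held 512 CPM in tumor 1 and 323 in tumor 3, and endothelial-like cells 327, 273 and 290.3 in tumors 1, 2 and 3. Neutrophil-like cells ranged widely, with 164 in tumor 1, 14.9 from 2 UMIs in tumor 2, and 291 in tumor 3. The order by mean was plasmacytoid dendritic-like, macrophage-like, endothelial-like, neutrophil-like, B cell-like, CAF-like, T cell-like and tumor-like cells. Neighbors in this order overlapped in their ranges over tumors, except T cell-like above tumor-like cells, where the lowest T cell-like value, 20.9 in tumor 3, came from 2 UMIs. Erythroid-like cells are left out of these orders, since in their sums of tumors 2 and 3 a count of 0 allows up to 126 and 127 CPM. NK cell-like cells of tumor 1, the one tumor with enough of them, held 429 CPM.

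Macrophage-like cells held 66.6%, 67.5% and 68.3% of all Tgfb1 UMIs of the kept cells in tumors 1, 2 and 3, a mean of 67.5% ± 0.82 (SD, n = 3). This share was alike in all 3 tumors although their macrophage content was not. After every cell was thinned to 500 UMIs, 14.5% of 904 macrophage-like cells and 26.1% of 111 plasmacytoid dendritic-like cells had a Tgfb1 UMI, against 0.309% of 3237 tumor-like cells. By tumor, the macrophage-like share was 15.5%, 12.7% and 12.1%, and the tumor-like share 2.60%, 0.213% and 0.0493%. The plasmacytoid dendritic-like share was 30.7% in tumor 1 and 8.70% in tumor 3, so it lay above the macrophage-like one in tumor 1 and below it in tumor 3. Without tumor 1 the pooled tumor-like share was 0.101%, and without tumor 3 it was 0.744%. Unthinned, the pooled shares were 71.7% and 86.5% against 0.834%, at median depths of 6285, 10074 and 1675 UMIs. Without tumor 1, which had the deepest macrophage-like and plasmacytoid dendritic-like cells, the first of these were 46.6% and 52.2%, and without tumor 3 the tumor-like share was 1.32%. Among 28 erythroid-like cells, at a median of 2319.5 UMIs, 0 had a Tgfb1 UMI, and with 3 cells as the limit this allows a share of cells with a UMI of up to 10.7%.

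Tgfb2 and Tgfb3, ligands that fibroblasts and smooth muscle cells make in many tissues, were highest in stromal cells. In CAF-like cells, Tgfb2 stood at 147 CPM in tumor 1, 52.1 in tumor 2 (4 UMIs) and 89.4 in tumor 3. Endothelial-like cells held 17.1, 20.2 and 24.9 CPM of Tgfb2, and tumor-like cells 9.24, 2.77 and 4.92. The tumors did not overlap between these classes: CAF-like values lay above endothelial-like values, and those above tumor-like values. Tgfb2 was at 0 UMIs in T cell-like, NK cell-like, plasma cell-like and erythroid-like sums, and macrophage-like cells held 8, 0 and 0 UMIs of it.

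Tgfb3 stood at 209 CPM in CAF-like cells of tumor 1, 65.1 in tumor 2 (5 UMIs) and 77.5 in tumor 3, and at 14.8, 6.10 and 6.48 in tumor-like cells. All 3 CAF-like values lay above all tumor-like values. In endothelial-like cells Tgfb3 was counted 4, 0 and 0 times. Erythroid-like cells of tumor 2 held 42.1 CPM from 1 UMI (interval 1.07 to 234), a depth that does not set them apart from CAF-like cells. Within the CAF-like cells of tumor 1, the 16 perivascular cells held 179 of the 193 Tgfb3 UMIs, at 587 CPM, and the 23 fibroblast cells held 9, at 17.7. Tgfb2 in the same cells of tumor 1 stood at 229 in perivascular, 43.2 in fibroblast and 396 in mesothelial-marker cells. In tumor 1, both transcripts were thus higher in perivascular than in fibroblast cells. The other tumors had at most 3 fibroblast and 4 perivascular cells, too few to compare.

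CAF-like cells held 67.3%, 30.8% and 38.5% of all Tgfb2 UMIs, and 80.1%, 23.8% and 32.5% of all Tgfb3 UMIs, in tumors 1, 2 and 3. Tumor-like cells held 2.48%, 38.5% and 48.7% of Tgfb2, and 3.32%, 52.4% and 62.5% of Tgfb3. These shares depend on class size: tumor-like cells held 1803829 of the 2740537 UMIs of all genes in tumor 2, and 3859304 of 5215401 in tumor 3. Tumor 1 was the high tumor for the CAF-like share and the low one for the tumor-like share. At 500 UMIs per cell, 8.70% of 92 CAF-like cells had a Tgfb2 UMI and 9.78% a Tgfb3 UMI. Tumor 1 carried much of this: by tumor the shares were 13%, 0% and 5.56% for Tgfb2 and 15.2%, 10.0% and 2.78% for Tgfb3, and without tumor 1 both were 4.35%. Tumor-like cells gave 0.216% and 0.309%, the latter from tumor 3 alone. Of 231 T cell-like cells 0 had either, which with 3 cells as the limit allows a share of cells with a UMI of up to 1.30%. Unthinned, 42.4% and 34.8% of CAF-like cells were positive at a median of 8023 UMIs, and 0% and 0.433% of T cell-like cells at a median of 1862. Without tumor 1 the unthinned CAF-like share for Tgfb2 was 21.7%, and 0 T cell-like cells had a Tgfb3 UMI.

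**Figure D1:**
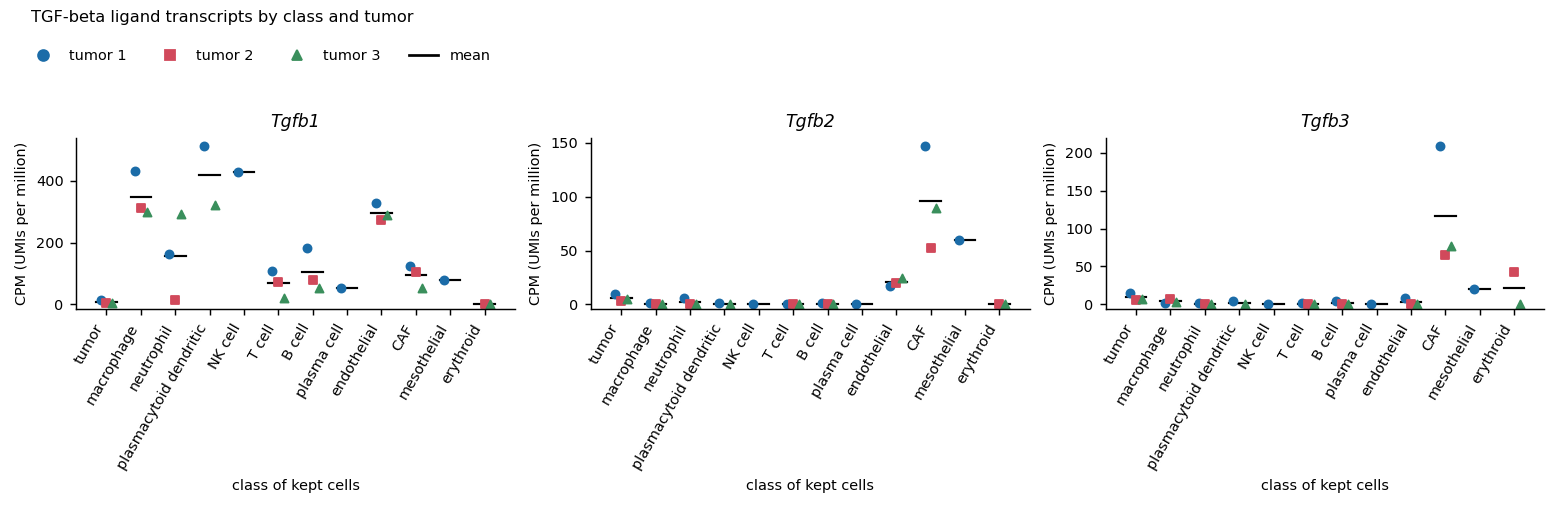
Level of each ligand transcript (CPM, UMIs per 1000000 UMIs of the class sum, linear axis) in classes with at least 10 cells; each point is 1 tumor and the black line is the mean over tumors. Tgfb1 is high in macrophage-like cells (297 to 430.3 CPM) and low in tumor-like cells, while Tgfb2 and Tgfb3 are highest in CAF-like cells.

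By mean level, Tgfbr1 was highest in plasmacytoid dendritic-like cells and Tgfbr3 in CAF-like cells, while Tgfbr2 was spread over stromal and immune classes. Tgfbr1, the type I kinase, stood at 194, 246 and 172 CPM in macrophage-like cells of tumors 1, 2 and 3, and at 297 and 143 in plasmacytoid dendritic-like cells of tumors 1 and 3. In tumor-like cells it stood at 16.6, 15.5 and 20.5, below every macrophage-like value. Neutrophil-like cells held 169.8, 44.6 (6 UMIs) and 179 CPM, so tumor 2 was low in this class. Endothelial-like cells held 38.4, 10.1 and 16.6, overlapping the tumor-like range. By mean the order was plasmacytoid dendritic-like, macrophage-like, neutrophil-like, CAF-like, B cell-like, T cell-like, endothelial-like and tumor-like cells, and all neighbors in this order overlapped. Macrophage-like cells held 66.5%, 68.5% and 51.8% of Tgfbr1 UMIs. At 500 UMIs per cell, 7.63% of macrophage-like and 0.711% of tumor-like cells had a Tgfbr1 UMI (54.8% and 3.49% unthinned).

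Tgfbr2, the type II receptor that binds free ligand, was spread over stromal and immune classes. Endothelial-like cells held 126, 192 and 99.5 CPM in tumors 1, 2 and 3, and CAF-like cells 226, 78.1 and 53.6. Macrophage-like cells held 53.9, 89.4 and 61.0, and T cell-like cells 104, 85.3 and 20.9. The CAF-like and T cell-like ranges overlapped those of all these classes, while every endothelial-like value lay above every macrophage-like value. Tumor-like cells lay below all 4 classes at 9.24, 2.22 and 2.07, from 5, 4 and 8 UMIs. Plasmacytoid dendritic-like cells of tumors 1 and 3 (89.0 to 108 CPM) and NK cell-like cells of tumor 1 (80.1) also lay above every tumor-like value. The remaining immune classes did not do so throughout, with plasma cell-like cells of tumor 1 at 7.90. B cell-like cells ranged from 0 to 113 CPM over tumors and neutrophil-like cells from 0 to 100, and both ranges overlapped the tumor-like one. The B cell-like counts of 0 are those of tumors 2 and 3, in sums of 25033 and 38495 UMIs, and neutrophil-like sums held as few as 44646. At sums this small a count of 0 does not set a class apart from tumor-like cells or from the higher classes. Within the CAF-like cells of tumor 1, fibroblast cells held 361 CPM of Tgfbr2 and perivascular cells 52.4. The largest mean share of Tgfbr2 UMIs was that of macrophage-like cells, at 42.3% ± 10.7 (SD, n = 3). Over all kept cells Tgfbr2 stood at 82.6, 31.4 and 15.0 CPM in tumors 1, 2 and 3, above the macrophage-like level in tumor 1 only.

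Tgfbr3 encodes betaglycan, a co-receptor that presents ligand, TGF-beta 2 above all, to the signaling receptors. It stood at 136, 130.1 and 23.8 CPM in CAF-like cells, and at 11.1, 7.76 and 5.44 in tumor-like cells. CAF-like cells of tumor 3, with 4 UMIs, were the low ones, and the 2 classes did not overlap. Of the 126 Tgfbr3 UMIs of CAF-like cells in tumor 1, 125 were in fibroblast cells (245 CPM) and 1 was in perivascular cells. In tumor 2, 10 of 10 were in fibroblast cells, and tumor 3, with 2 fibroblast cells, had 0 there. Mesothelial-like cells of tumor 1 held 80.7, and B cell-like, NK cell-like, plasma cell-like and erythroid-like sums held 0 UMIs. In tumor 1, Tgfbr2 and Tgfbr3 were thus higher in fibroblast than in perivascular cells, Tgfb3 was the reverse, and Tgfb2 was highest in mesothelial-marker cells among subclusters of more than 1 cell, a description with no test. By number of UMIs, tumor-like cells held 6 of 265, 14 of 35 and 21 of 29 Tgfbr3 UMIs in tumors 1, 2 and 3, the largest share of any class in tumors 2 and 3. Their level was not raised there: Tgfbr3 over all kept cells of tumors 2 and 3 stood at 12.8 and 5.56 CPM.

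**Figure D2:**
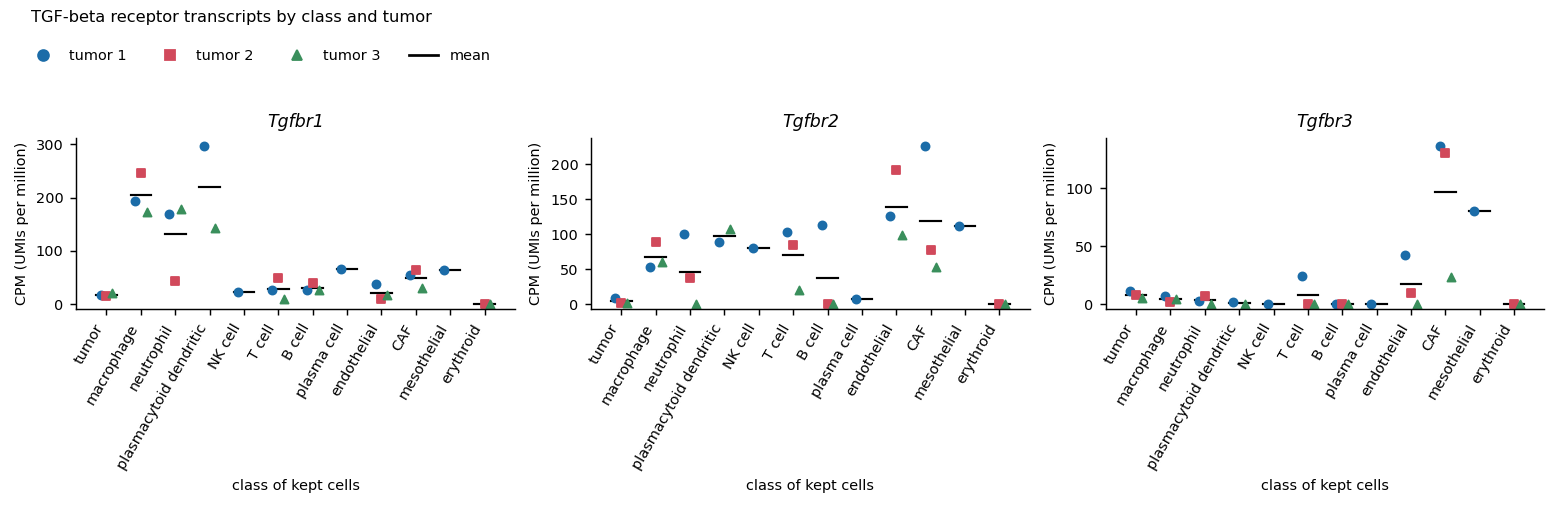
Level of each receptor transcript (CPM, UMIs per 1000000 UMIs of the class sum, linear axis) in classes with at least 10 cells; points are tumors and the black line is their mean. Tgfbr1 is high in myeloid classes, Tgfbr2 is spread over stromal and immune classes, and Tgfbr3 is highest in CAF-like cells, where tumor 3 lies at 23.8 CPM.

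The storage genes stood highest, relative to all UMIs of a class, in stromal classes. Ltbp1, which anchors latent ligand to matrix fibrils, stood at 83.3 CPM in CAF-like cells of tumor 1, 26.0 in tumor 2 and 17.9 in tumor 3, from 77, 2 and 3 UMIs. Tumor-like cells held 3.70, 4.44 and 2.33, below every CAF-like value, and B cell-like, T cell-like, NK cell-like, plasmacytoid dendritic-like and erythroid-like sums held 0. In tumor 1, 67 of the 77 CAF-like UMIs were in fibroblast cells, at 131 CPM, and 2 in perivascular cells, at 6.56. By number of UMIs, tumor-like cells held 2 of 92 Ltbp1 UMIs in tumor 1 but 8 of 10 in tumor 2 and 9 of 15 in tumor 3, the largest share of any class in the latter tumors. Ltbp1 over all kept cells of tumors 2 and 3 stood at 3.65 and 2.88 CPM, close to the tumor-like levels.

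Ltbp3, another binder of the latent complex, stood at 124, 78.1 and 83.4 CPM in CAF-like cells and at 38.4, 40.4 and 49.8 in endothelial-like cells. The CAF-like values lay above all endothelial-like values, and these above all tumor-like values of 0, 6.65 and 2.59. The 16 mesothelial-like cells of tumor 1 held 191, the highest class value of Ltbp3, and 39.8% of its UMIs in that tumor. CAF-like cells held 44.9%, 25% and 43.8% of Ltbp3 UMIs in tumors 1, 2 and 3, and tumor-like cells 0 UMIs in tumor 1, 12 of 24 in tumor 2 and 10 of 32 in tumor 3. At 500 UMIs per cell, 3.26% of CAF-like cells had an Ltbp1 UMI and 6.52% an Ltbp3 UMI, and 0 of 231 T cell-like cells had either. Unthinned, 25% and 47.8% of CAF-like cells were positive, and 0% and 0.866% of T cell-like cells. The CAF-like shares rest on tumor 1: without it they were 0% and 2.17% thinned, and 6.52% and 28.3% unthinned. Without tumor 3 the thinned Ltbp1 share was 5.36%, and without tumor 2 the unthinned T cell-like share for Ltbp3 was 0.541%.

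Tgfbi, a secreted adhesion protein whose gene TGF-beta induces, was a myeloid transcript here. Macrophage-like cells held 777, 515 and 406 CPM in tumors 1, 2 and 3, and neutrophil-like cells 589.9, 245 and 448. The 2 classes overlapped, and both lay above every value of the other classes. Endothelial-like cells followed with 117, 10.1 and 41.5, CAF-like cells held 9.73, 0 and 35.8, and tumor-like cells 9.24, 2.22 and 3.11. Macrophage-like cells held 88.1%, 84.5% and 86.4% of all Tgfbi UMIs. At 500 UMIs per cell, 24.0% of 313 neutrophil-like cells (median 2464 UMIs) and 19.8% of macrophage-like cells were positive, against 0.185% of tumor-like cells. Unthinned, the shares were 63.3%, 63.8% and 0.649%. Without tumor 1, the thinned neutrophil-like and tumor-like shares were 14.3% and 0.101%, and the unthinned macrophage-like share 42.1%. Without tumor 3, the thinned tumor-like share was 0.331%.

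Smad7, which blocks the type I receptor and targets it for degradation, was highest in NK cell-like, B cell-like, plasmacytoid dendritic-like and T cell-like cells. The NK cell-like cells of tumor 1, the one tumor with enough of them, held 492 CPM, and the plasma cell-like cells of that tumor 43.4. B cell-like cells held 291, 279.6 (7 UMIs) and 675 CPM in tumors 1, 2 and 3, T cell-like cells 322, 354 and 417, and plasmacytoid dendritic-like cells 292 in tumor 1 and 519.8 in tumor 3. These last 3 classes overlapped. Endothelial-like cells held 124, 131 and 149, and macrophage-like cells 47.9, 65.2 and 71.4, below the B cell-like and T cell-like values in each tumor. Tumor-like cells held 25.9, 8.32 and 9.85. Tumor 3 gave the high B cell-like value, from 26 UMIs in 25 cells. The largest mean share of Smad7 UMIs was that of macrophage-like cells, at 21.8% ± 2.27 (SD, n = 3). This share depends on the size of the class: Smad7 over all kept cells stood at 119, 41.2 and 41.8 CPM in tumors 1, 2 and 3. The macrophage-like level lay below that value in tumor 1 and above it in tumors 2 and 3. At 500 UMIs per cell, 16.7% of 245 B cell-like, 14.3% of T cell-like and 0.587% of tumor-like cells had a Smad7 UMI (59.6%, 55.0% and 1.85% unthinned).

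**Figure D3:**
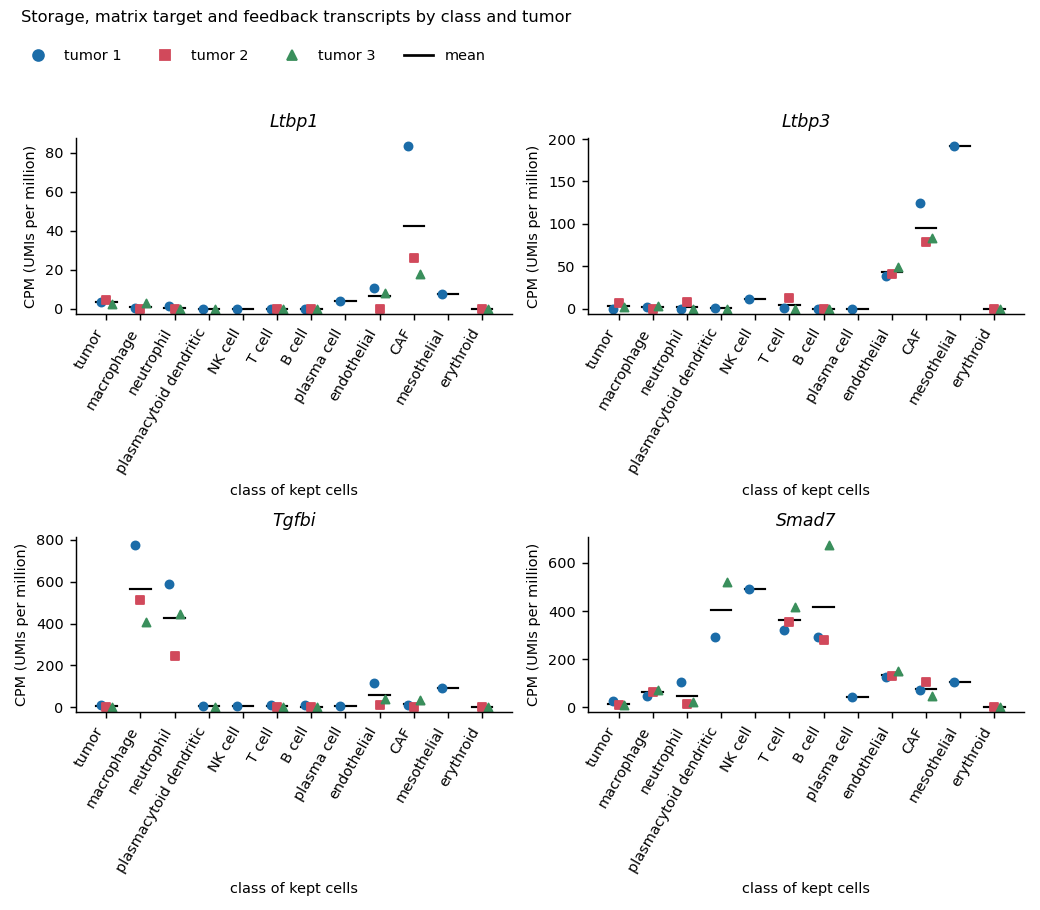
Level of Ltbp1, Ltbp3, Tgfbi and Smad7 (CPM, UMIs per 1000000 UMIs of the class sum, linear axis) in classes with at least 10 cells; points are tumors and the black line is their mean. Ltbp1 is highest in CAF-like cells, Ltbp3 in mesothelial-like and CAF-like cells, and Tgfbi in macrophage-like and neutrophil-like cells. Smad7 is highest in NK cell-like, B cell-like, plasmacytoid dendritic-like and T cell-like cells.

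**Figure D4:**
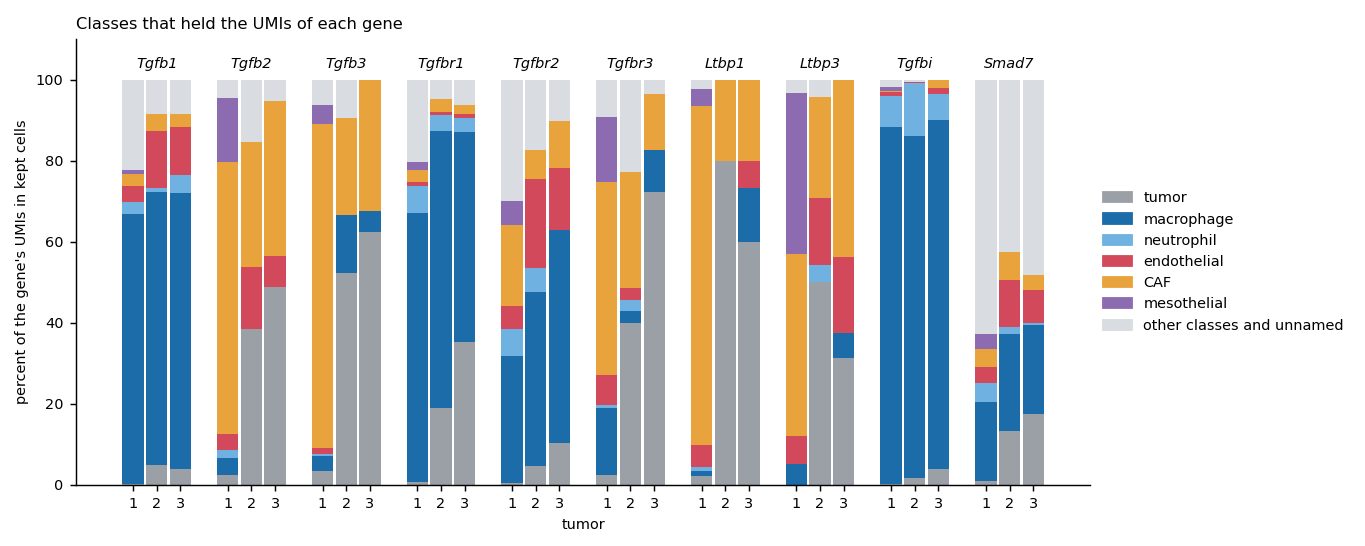
Percent of each gene's UMIs in kept cells that each class held, with 1 bar per tumor and bars that add up to 100 percent. Macrophage-like cells held 66.6% to 68.3% of Tgfb1 and 84.5% to 88.1% of Tgfbi in each tumor, while the CAF-like share of Tgfb2, Tgfb3 and Ltbp1 was largest in tumor 1. A share depends on the size of a class as well as on its level.

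To ask which compartment of the tumor carries each transcript, counts were summed per tumor over immune-like, stromal-like (CAF-like, endothelial-like and mesothelial-like) and tumor-like cells. Tgfb1 in the immune-like sums stood at 359, 213 and 258 CPM, and in the stromal-like sums at 161, 199 and 153. Tumor-like sums were the tumor-like class values given above, and lay below both. Stromal-like sums of Tgfb2 stood at 91.4, 34.1 and 62.4, and of Ltbp3 at 122, 56.9 and 69.4. Immune-like sums of Tgfb2 stood at 1.42, 0 and 0, and of Ltbp3 at 1.73, 3.0 and 2.17. For both genes the stromal-like values lay above those of the other compartments.

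Against tumor-like cells, immune-like cells had 5 of the 10 genes higher and 0 lower by edgeR's quasi-likelihood test with Benjamini-Hochberg adjustment over 10019 genes. In that comparison 38.6% of all genes tested were called, and 21.4% were called higher. Among the ligands, Tgfb1 was higher by a log2 fold change of 5.74 ± 0.55 (SE; adjusted p = 9.07e-05, higher in 3 of 3 tumors). The receptors Tgfbr1 (log2 3.29, adjusted p = 0.000152) and Tgfbr2 (log2 4.46, adjusted p = 0.000238) were higher, as were Tgfbi (log2 6.86, adjusted p = 0.000125) and Smad7 (log2 3.49, adjusted p = 0.000167). Tgfb2, Tgfb3 and Ltbp1 were lower in 3 of 3 tumors, with log2 fold changes of -1.92, -1.51 and -2.31, and were not called (adjusted p = 0.0596, 0.0737 and 0.0645). Their immune-like sums of tumors 2 and 3 held few UMIs: 0 and 0 of Tgfb2, 3 and 2 of Tgfb3, and 0 and 2 of Ltbp1. In tumor 2 a count of 0 allows 4.50 CPM, above the tumor-like 2.77 of Tgfb2 and 4.44 of Ltbp1, so the direction there is not resolved. Tgfbr3 (log2 -0.29, lower in 3 of 3 tumors) and Ltbp3 (log2 -0.64, lower in 2 of 3) were not called either. Without adjustment, 8 of 10 had a p under 0.05, 5 higher and 3 lower; DESeq2 called the same number, 5 higher and 0 lower, with 7 under 0.05 before adjustment. The median log2 fold change of the 10 genes was 1.5, against -0.22 for all genes tested. With tumor as a replicate block 8 were called, 5 higher and 3 lower. The share of all genes called in that fit is not given, so the move from 5 to 8 is not measured against it. On counts recovered from the authors' normalized values, which the authors made after taking out ambient RNA and which hold 46.3%, 54.1% and 55.5% of the raw UMIs, 3 were called: Tgfb1 (log2 2.46) and Tgfbi (log2 4.18) were higher without passing. Whether ambient RNA alone makes up the UMIs missing from them was not tested, so a call lost on these counts is not a measure of ambient RNA.

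Stromal-like cells had all 10 genes higher than tumor-like cells by the same test, in 3 of 3 tumors each, where 40.1% of all genes tested were called and 24.8% were called higher. The largest differences were those of Tgfbr2 (log2 5.39 ± 0.57, adjusted p = 7.76e-05), Tgfb1 (4.93 ± 0.55, adjusted p = 9.21e-05), Ltbp3 (4.61 ± 0.60, adjusted p = 0.000214) and Tgfb2 (3.79 ± 0.61, adjusted p = 0.000823) by edgeR with Benjamini-Hochberg adjustment. Tgfbi, Tgfbr3, Tgfb3, Ltbp1 and Smad7 lay between 3.02 and 3.41. Tgfbr1 differed least, at 1.24 ± 0.38 (edgeR adjusted p = 0.0257). The median of the 10 genes was 3.28, against -0.02 for all genes tested. Single tumors decided some calls: without tumor 1 Tgfbr1 (log2 0.68) did not pass, without tumor 2 Tgfbr1 (1.17) and Tgfbr3 (3.14) did not, and without tumor 3 Tgfbi (3.23) did not. On the corrected counts 5 of the 10 were called, and Tgfbr1 (0.32), Tgfb1 (1.89) and Tgfbi (0.71) did not pass. The rest of the 10 had no result on those counts.

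Set against immune-like cells, stromal-like cells had 5 genes higher and 2 lower; 19.5% of all genes tested were called, 12.6% higher and 6.97% lower. Ligands and storage genes led the higher ones: Tgfb2 (log2 5.72 ± 0.71, edgeR adjusted p = 0.000232), Ltbp1 (5.42 ± 0.84, adjusted p = 0.000908), Ltbp3 (5.25 ± 0.64, adjusted p = 0.00022) and Tgfb3 (4.64 ± 0.60, adjusted p = 0.000316). The co-receptor Tgfbr3 was also higher (3.44 ± 0.66, edgeR adjusted p = 0.00341). Tgfbr1 (log2 -2.05 ± 0.37, edgeR adjusted p = 0.00219) and Tgfbi (-3.45 ± 0.59, adjusted p = 0.00164) were lower, each in 3 of 3 tumors. Tgfb1, Tgfbr2 and Smad7 were not called, at log2 -0.81, 0.93 and -0.46 (edgeR adjusted p = 0.263, 0.195 and 0.485). The median of the 10 was 2.18, against -0.03 for all genes tested. Tgfbr3 did not pass without tumor 2 (log2 3.24), and Tgfbi did not on the corrected counts (-3.47), where 4 of the 10 were called. The other genes called in the main fit had no result on those counts.

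To place the genes among single classes, each class with sums from at least 2 tumors was compared with the equally weighted average of the remaining classes, over 28 sums and 9041 genes tested. Over 9 classes, 17 pairs of gene and class were called higher and 0 lower by edgeR's quasi-likelihood test with Benjamini-Hochberg adjustment. At an unadjusted p under 0.05 there were 24 higher and 3 lower, and DESeq2 called 13 higher and 6 lower. The shares of all genes tested that edgeR called are given class by class below. The unadjusted and DESeq2 totals are given without such a share. A class with no UMI of a gene has no lower bound in this count fit, and each of the 10 genes had at least 1 such class among the 12 in the fit, which include classes summed in 1 tumor. The test could therefore hardly call a gene lower, and the size of the fold changes depends on the classes at 0. The mean level of the class and that of the other classes are therefore given beside each fold change below.

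CAF-like cells had 5 genes higher, where 16.6% of all genes tested were called higher and 0.343% lower. Tgfb2 stood at a mean of 96.2 CPM against 8.15 in the other classes (log2 6.12 ± 0.56, edgeR adjusted p = 1.58e-08), and Tgfb3 at 117 against 5.64 (5.59 ± 0.50, adjusted p = 3.47e-09). Ltbp1 stood at 42.4 against 2.07 (5.69 ± 0.73, edgeR adjusted p = 5.37e-06), Ltbp3 at 95.3 against 23.5 (5.30 ± 0.56, adjusted p = 1.57e-07) and Tgfbr3 at 96.7 against 11.3 (5.36 ± 0.75, adjusted p = 7.81e-06). Each was higher in 3 of 3 tumors. Without tumor 1, Tgfb2, Tgfb3, Ltbp1 and Ltbp3 did not pass the filter on low counts, and Tgfbr3 was called at log2 6.17. With the mesothelial-marker and unnamed subclusters removed, only tumor 1 kept 10 CAF-like cells, so the class could not be tested.

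Endothelial-like cells had Tgfb2 and Ltbp3 higher, 2 of the 10 genes, where 12.5% of all genes tested were called higher and 0.166% lower. Tgfb2 stood at a mean of 20.7 CPM against 15.0 in the other classes, above them in 2 of 3 tumors (log2 3.28 ± 0.84, edgeR adjusted p = 0.00873). Ltbp3 stood at 42.9 against 28.2 (3.68 ± 0.71, edgeR adjusted p = 0.000548), higher in 3 of 3. The Tgfb2 call was lost with DESeq2 (log2 2.13), without tumor 3 (3.16) and on the corrected counts (2.41). Without tumor 1, Tgfb2 and Ltbp3 did not pass the filter on low counts, so neither call could be tested.

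Macrophage-like cells had 3 genes higher, against 11.2% of all genes tested (0.0885% were lower). Tgfbi stood at a mean of 566 CPM against 55.8 (log2 5.59 ± 0.53, edgeR adjusted p = 5.75e-08), Tgfbr1 at 204 against 59.5 (2.72 ± 0.46, adjusted p = 0.000142) and Tgfb1 at 346 against 155 (2.48 ± 0.60, adjusted p = 0.00521), each higher in 3 of 3 tumors. The Tgfb1 call was lost with DESeq2 (log2 1.94), on the corrected counts (2.16) and with at least 20 cells per sum (1.62). Neutrophil-like cells had Tgfbi (428 against 68.4; log2 5.51 ± 0.54, edgeR adjusted p = 3.08e-08) and Tgfbr1 (131 against 66.1; 2.42 ± 0.51, adjusted p = 0.00096) higher, 2 of the 10 against 15.5% of all genes tested (1.23% were lower). Tgfbr1 lay above the other classes in 2 of 3 tumors, and its call was lost without tumor 1 (log2 2.07).

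Plasmacytoid dendritic-like cells, summed in tumors 1 and 3, had Tgfbr1, Tgfb1 and Smad7 higher, 3 of the 10, where 5.85% of all genes tested were called, 5.77% higher and 0.0774% lower. Tgfbr1 stood at a mean of 220.0 CPM against 58.0 (log2 2.86 ± 0.53, edgeR adjusted p = 0.000768), Tgfb1 at 417 against 148 (2.66 ± 0.68, adjusted p = 0.0151) and Smad7 at 406 against 159 (2.44 ± 0.57, adjusted p = 0.00734). In B cell-like cells Smad7 alone was higher, at 415 against 158 (2.36 ± 0.52, edgeR adjusted p = 0.00763), 1 of the 10 where 2.88% of all genes were called, 2.74% higher and 0.133% lower. In T cell-like cells Smad7 alone was higher too, at 364 against 163 (2.40 ± 0.50, edgeR adjusted p = 0.00576), 1 of the 10 where 2.54% were called, 2.52% higher and 0.0221% lower. The 3 Smad7 calls were lost without the erythroid-like sums, at log2 1.66, 1.60 and 1.52 in the same order, and the Tgfb1 call in plasmacytoid dendritic-like cells was lost there too (1.87). Smad7 was also not called without tumor 3 in B cell-like cells (2.06) and without tumor 2 (2.43) or tumor 3 (2.34) in T cell-like cells. With DESeq2, Smad7 in T cell-like cells (1.75) and Tgfb1 in plasmacytoid dendritic-like cells (2.25) were not called, and the latter was also not called on the corrected counts (2.50). With at least 20 cells per sum, Smad7 was not called in B cell-like (1.80) and T cell-like cells (1.53), nor Tgfb1 in plasmacytoid dendritic-like cells (1.85). With limma on log2 CPM, none of the 3 genes was called in plasmacytoid dendritic-like cells (2.26, 2.27 and 2.17 for Tgfbr1, Tgfb1 and Smad7).

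Tumor-like cells had 0 of the 10 genes called, where 31.2% of all genes tested were called by edgeR, 29.4% higher and 1.83% lower; 0 had an unadjusted p under 0.05, and DESeq2 called 6 lower. DESeq2 also turned the direction of the whole comparison, with 327 of all genes tested higher and 2341 lower and a median log2 fold change of -0.60, against 0.51 by edgeR. Erythroid-like cells likewise had 0 called, where 0.442% of all genes were, 0.199% higher and 0.243% lower; 3 had an unadjusted p under 0.05, and DESeq2 called 0. Neutrophil-like and macrophage-like cells, the myeloid classes that the study sets apart, were also compared directly. By edgeR 0 of the 10 genes differed, where 7.27% of all genes tested did, 4.14% higher and 3.13% lower. An unadjusted p under 0.05 was found for 1 of the 10, and DESeq2 called 0. The balance over all genes depended on the scaling: 374 were higher and 283 lower by edgeR, and 450 and 119 by DESeq2. With edgeR on plain library sizes, 357 were higher and 561 lower. The log2 fold change was -0.07 ± 0.70 for Tgfbi, -0.27 ± 0.57 for Tgfbr1 and -1.01 ± 0.75 for Tgfb1.

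Within the macrophage-like class, clusters matched marker lists for the Apoe+, Ccr2+ and Pecam1+ subsets that the study names, and Tgfb1 was present in all of them. The names were given over all tumors together, and 220 of the 245 Ccr2+ cells were of tumor 1, with 11 and 14 in tumors 2 and 3. In tumor 3 the genes furthest above other classes in the Ccr2+ cells were Spp1, Cd74 and H2-Ab1, which are outside the Ccr2+ list. Apoe+ cells held 393, 248 and 239 CPM of Tgfb1 in tumors 1, 2 and 3, Ccr2+ cells 477, 306 and 389, and Pecam1+ cells 407, 387 and 358. Apoe+ cells were the lowest in each tumor, and the ranges of the subsets overlapped. Tgfbr1 stood at 285, 318 and 207 in Pecam1+ cells, 209.8, 199 and 158 in Apoe+ cells, and 108, 178 and 114 in Ccr2+ cells. Pecam1+ cells were the highest and Ccr2+ cells the lowest in each tumor. The Ccr2+ values of tumors 2 and 3 rest on 7 UMIs each. Their intervals, 71.7 to 367 and 45.7 to 234, cover the values of the other subsets. Tgfbi changed its order between tumors: Apoe+ cells were highest in tumor 1 (988) and lowest in tumors 2 and 3 (189 and 264).

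Of the 10 genes, 5 passed the filter in the fit of the subsets (Tgfb1, Tgfbr1, Tgfbr2, Tgfbi and Smad7), and 0 were called in any subset against the others by edgeR with Benjamini-Hochberg adjustment. Of all genes tested, 2.97% were called for Apoe+ (2.1% higher, 0.867% lower), 0.342% for Ccr2+ (0.183% higher, 0.16% lower) and 0.981% for Pecam1+ cells (0.571% higher, 0.411% lower). At an unadjusted p under 0.05 there were 0, 1 and 2, and DESeq2 called 0 in each. Tgfbr1 was higher in Pecam1+ cells in 3 of 3 tumors without passing (log2 0.73 ± 0.27, edgeR adjusted p = 0.27), and lower in Ccr2+ cells in 3 of 3 (-0.86 ± 0.30, adjusted p = 0.443). With tumor as a replicate block 2 calls were made, 1 gene higher in Pecam1+ cells and 1 lower in Ccr2+ cells. Subsets of 1 tumor share an animal, and residuals of subsets correlated at a median of 0.449 within a tumor and -0.30 between tumors.

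A list of 49 other genes of the pathway placed the 10 genes in context. Of its members, 42 passed the filter in the compartment fit. Against tumor-like cells, immune-like cells had 18 of them higher and 3 lower, where 21.4% of all genes tested were higher and 17.2% lower, with a median log2 fold change of 0.97, or 0.91 with Lrrc32, at 0 UMIs in tumor-like cells, set at a limit of 3 counts. Among 17 tested genes of latency, storage and activation, 9 were higher, led by the protease gene Mmp9 (log2 6.76 ± 0.87, edgeR adjusted p = 0.000271), Nrros (5.90 ± 0.70), which tethers latent TGF-beta on myeloid cells, and the integrin gene Itgb5 (5.11 ± 0.42). Of 7 transducers, 2 were higher, with Dab2 at 5.19 ± 0.77, and Fkbp1a, which guards the resting type I receptor, was lower (-0.95 ± 0.25, edgeR adjusted p = 0.0144). The fibrillin gene Fbn2 (-3.27 ± 1.1) and Ltbp4 (-1.34 ± 0.45) were lower. Of 8 inhibitor and feedback genes 3 were higher, of 5 target genes 3, of 3 co-receptors and type I partners 1, and of 2 matrix binders of the ligand 0; 0 of these were lower.

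Stromal-like cells had 34 of the 42 higher than tumor-like cells and 0 lower by edgeR; at an unadjusted p under 0.05, 34 were higher and 1 lower, and DESeq2 gave 34 and 0. Of all genes tested, 24.8% were higher and 15.3% lower. The median log2 fold change was 3.87. Storage and activation genes made up 16 of the 34, of 17 tested, and all 3 co-receptors, both matrix binders and all 5 target genes were higher. Lrrc32, which holds latent TGF-beta on the cell surface, stood at 61.0 CPM against 0 UMIs in the tumor-like sums, at least 126-fold higher with 3 counts over the group as the limit. With Lrrc32 at that bound the median was 3.87 as well. Thbs2, a thrombospondin, had 204 UMIs against 1, a ratio of pooled levels of 529 with an exact interval of 94.0 to 21015 (edgeR adjusted p = 7.53e-05). Dcn, the matrix proteoglycan decorin, stood at 2154 against 12.5 (7.99 ± 1.14), and the target gene Ccn2 (older symbol Ctgf) at 444 against 3.70 (7.73 ± 0.94).

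Set against immune-like cells, stromal-like cells had 26 of the 42 higher and 2 lower, where 12.6% of all genes tested were higher and 6.97% lower, with a median log2 fold change of 1.70. The largest were Dcn (2154 against 4.77 CPM, log2 8.27 ± 1.13), the plasminogen activator gene Plat (117 against 0.169; 7.85 ± 0.84), the fibrillin gene Fbn1 (601 against 1.89; 7.55 ± 0.82) and Ctgf (444 against 1.12; 7.43 ± 0.90). Mmp9 (log2 -5.15 ± 0.87) and Nrros (-2.67 ± 0.60) were lower, and both belong to the activation group, of which 12 of 17 were higher.

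Of the 49 listed genes, 44 passed the filter in the class fit. CAF-like cells had 28 of these 44 higher (16.6% of all genes tested), 15 of them among 19 storage and activation genes, with Thbs2 (112 against 0.248 CPM), Fbn1 (1209 against 14.8), Lrrc32 (107 against 2.31) and Dcn (3372 against 512) at the largest fold changes. Endothelial-like cells had 21 higher (12.5% of all genes tested), led by the co-receptor gene Eng (834 against 10.9), Dab2 (153 against 23.8), the type I receptor gene Acvrl1 (84.7 against 4.83) and Ltbp4 (317 against 35.0). Macrophage-like cells had 10 higher (11.2% of all genes tested), led by Itgb5 (130.3 against 24.7), Dab2 (36.3 against 34.4), Acvrl1 (20.2 against 10.7) and Zfyve9 (42.7 against 10.1). DESeq2 called 6 of the listed genes higher and 3 lower in macrophage-like cells, and 502 higher and 92 lower of all genes tested. Neutrophil-like cells had 10 higher (15.5% of all genes tested), led by Mmp9 (787 against 1.40), Thbs1 (304 against 107), Id1 (84.2 against 55.3) and Nrros (105 against 36.6), and Pmepa1 and Fkbp1a were lower (1.23% of all genes tested). For Dab2 and Acvrl1 in macrophage-like cells the endothelial-like level was above the macrophage-like one, at 153 and 84.7.

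In the remaining class comparisons few of the listed genes were called. The shares of all genes tested that were called stood at 5.85% in plasmacytoid dendritic-like, 2.88% in B cell-like, 2.54% in T cell-like and 0.442% in erythroid-like cells. Plasmacytoid dendritic-like cells had Nrros higher (119 against 35.4 CPM), B cell-like cells had the integrin gene Itgb1 lower (43.8 against 305), and T cell-like and erythroid-like cells had 0 called by edgeR, with 2 and 4 at an unadjusted p under 0.05 and 1 and 0 called by DESeq2. Tumor-like cells had 4 of the 44 higher and 1 lower by edgeR, where 29.4% of all genes tested were higher and 1.83% lower, while DESeq2 called 0 higher and 23 lower, in a fit where it called 327 of all genes tested higher and 2341 lower. The mean levels were 22.4 against 12.0 CPM for Zfyve9, 27.0 against 20.9 for Emilin1, 298 against 202 for Fkbp1a and 22.9 against 113 for Pmepa1, the lower one. Fbn2, called higher, had a lower mean than the other classes (6.72 against 7.24), and its B cell-like, neutrophil-like, plasmacytoid dendritic-like and erythroid-like sums held 0 UMIs. Neutrophil-like cells differed from macrophage-like cells in 9 of the 44 by edgeR, where 7.27% of all genes tested were called and DESeq2 called 3 higher and 2 lower: Mmp9 (787 against 5.84), Id1 and Tgif2 were higher, and 6 were lower, among them Itgb5 (2.36 against 130.3) and Dab2 and Acvrl1, both at 0 UMIs in neutrophil-like sums. Among the macrophage-like subsets, 17 listed genes were tested, and 2.97%, 0.342% and 0.981% of all genes tested were called for Apoe+, Ccr2+ and Pecam1+ cells. Apoe+ cells had Itgb5 (212 against 68.5) higher and Id3 and Zfyve9 lower, and Thbs1 was higher in Ccr2+ cells (521 against 52.6) and lower in Pecam1+ cells (26.1 against 300.2).

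The 10 genes lie on different chromosomes of the GRCm38 build (GENCODE M21 annotation). Tgfb1 lies at chr7:25687002-25705077, Tgfb2 at chr1:186622792-186705989, Tgfb3 at chr12:86056745-86079041, Tgfbr1 at chr4:47353222-47414931, Tgfbr2 at chr9:116084293-116175360 and Tgfbr3 at chr5:107106570-107289629. Ltbp1 lies at chr17:75005568-75392512, Ltbp3 at chr19:5740904-5758532, Tgfbi at chr13:56609523-56639562 and Smad7 at chr18:75367529-75395935.

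Across the 28 sums of tumor and class, the patterns of the 10 genes were compared with those of 8583 genes by Pearson's r of log2(CPM + 10), a description over sums that share tumors and depth. The 3 genes most like Tgfb1 were Clec2d, Cd47 and Abi1 (r from 0.843 to 0.867), and those most like Tgfb2 were Fkbp14, Copz2 and Lhfp (0.959 to 0.968). Tgfb3 was most like Tpm2, Lum and Col6a3 (0.878 to 0.884), Ltbp1 most like Mrc2, Htra3 and Fbn1 (0.937 to 0.965), and Ltbp3 most like Crtap, Sulf1 and Clu (0.95 to 0.964). For the receptors the nearest were Prkcd, Gm2a and Gpr35 with Tgfbr1 (0.832 to 0.847), Ifi35, Cflar and Cast with Tgfbr2 (0.872 to 0.902), and Pcdh7, Snx7 and Serping1 with Tgfbr3 (0.904 to 0.912). Tgfbi was most like Igsf6, Tlr2 and Pilrb2 (0.930 to 0.934), and Smad7 most like Gtpbp2, Foxp1 and Mbnl1 (0.848 to 0.880). Among the 10 genes themselves, the closest pair was Tgfb2 and Ltbp3 (r = 0.916), followed by Tgfb2 and Ltbp1 (0.881).

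Promoters are shown for the genes called higher in the same class, the CAF-like cells, although in tumor 1 their UMIs lay in different subclusters of it. The RefSeq table of build GRCm38.p6 (250 bases before to 50 after the start) held 7 of the 10 genes, among these Tgfb2, Ltbp1 and Ltbp3, and not Tgfb3 or Tgfbr3. The letters searched on both strands were the GC box GGGCGG (or CCGCCC), the AP-1 motif TGACTCA (or TGAGTCA), the TEAD motif GGAATG (or CATTCC), the E-box CACGTG (its own reverse) and the Smad box CAGAC (or GTCTG). Of 27025 promoters of the same length, 35.9% held the GC box, 5.17% the AP-1 motif, 14.6% the TEAD motif, 7.24% the E-box and 49.7% the Smad box. Capitals mark matches of the first 4 motifs: 1 E-box in Tgfb2 (chr1:186705940-186706239, minus strand), 0 in the first of the 2 listed for Ltbp1 (chr17:75005279-75005578, plus strand) and 1 AP-1 motif in Ltbp3 (chr19:5740650-5740949, plus strand). The Smad box, left in lower case, occurred 2, 1 and 2 times, and in Ltbp3 one of these shares letters with the AP-1 match. The other listed promoter of Ltbp1 (chr17:75178531-75178830), not shown, held 0 of the first 4 motifs and 2 Smad boxes. A match is a description, not a site.
Tgfb2: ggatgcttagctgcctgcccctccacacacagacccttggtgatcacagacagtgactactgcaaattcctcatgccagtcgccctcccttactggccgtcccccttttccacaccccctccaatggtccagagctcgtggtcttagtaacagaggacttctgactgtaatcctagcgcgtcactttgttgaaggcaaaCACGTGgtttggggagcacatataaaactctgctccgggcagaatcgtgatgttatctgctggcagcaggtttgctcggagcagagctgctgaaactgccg
Ltbp1: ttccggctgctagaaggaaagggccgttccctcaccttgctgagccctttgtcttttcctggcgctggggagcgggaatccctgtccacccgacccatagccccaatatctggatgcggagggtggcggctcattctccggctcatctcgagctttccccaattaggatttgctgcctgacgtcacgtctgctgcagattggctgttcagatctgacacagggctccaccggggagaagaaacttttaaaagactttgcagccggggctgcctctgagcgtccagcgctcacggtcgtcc
Ltbp3: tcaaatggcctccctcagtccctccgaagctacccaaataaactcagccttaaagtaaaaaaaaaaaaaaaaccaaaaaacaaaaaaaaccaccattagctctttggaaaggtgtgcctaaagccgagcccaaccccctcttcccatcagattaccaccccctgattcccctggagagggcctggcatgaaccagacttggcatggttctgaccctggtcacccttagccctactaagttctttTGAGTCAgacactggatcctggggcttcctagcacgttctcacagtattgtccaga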

How the data were processed

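The 10 genes and the marker and pathway lists were chosen with earlier results of these data known. The raw files hold whole-number UMI counts, deposited by the authors from 10x Chromium libraries (v3.1 chemistry). The authors also deposited normalized values, each the natural log of a corrected count with 1 added. They made these after taking out ambient RNA, doublets and barcodes beyond limits for each tumor; the barcodes left defined the kept cells, and the values gave the corrected counts. Raw counts of kept cells were integrated across tumors and clustered with Seurat 5.3.0 (2000 variable genes, resolution 1), with the 10 genes and the pathway list held out of the variable genes. A cluster was named from at least 3 markers of a list that were over 2-fold above the lower quartile of the clusters of its tumor and present in at least 10% of cells. This naming rule is 1 of 5 versions tried and was settled after cluster markers were seen; a later version is reported as an alternative. CAF-like and macrophage-like cells were clustered again, the CAF-like cells without integration. These subclusters were named by the same markers and limits, but over the 3 tumors together and not tumor by tumor. Before that, macrophage-like subclusters that did not read as macrophages in a tumor were moved to the unnamed cells, 106 cells of tumor 1 and 2 of tumor 3.

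UMIs were summed per tumor and class (at least 10 cells) and tested with edgeR 4.0.16 (quasi-likelihood test, filterByExpr, TMM factors, Benjamini-Hochberg adjustment over all genes tested per comparison, threshold 0.05), with DESeq2 1.42.0 and limma 3.58.1 as alternatives under R 4.3.3; the procedure was checked on simulated data. CPM are unadjusted for TMM factors. In the compartment fit, residuals of sums of 1 tumor correlated at a median of 0.265 (9 pairs, 0.0355 to 0.457) and those of different tumors at -0.17, so a fit with tumor as a replicate block is given as an alternative. Intervals are exact Poisson or exact binomial at 95%. Where a count was 0, the limit given is 3 counts of the total, which is not an exact interval. All 10 genes are named, in the class and subset comparisons mainly those called; of the pathway list, up to 4 per direction and comparison with the largest absolute fold change among the called ones are named, and for likeness the 3 genes with the highest r. Results for 1 gene of the pathway list are not reported here, though the list's counts include it. Raw counts were not depth-matched between classes except for shares of cells. Barcodes that were not kept entered no comparison, and neither did unnamed cells. Coordinates are those of the GENCODE M21 annotation, which held 30464 of the 31053 gene identifiers.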

Additional observations from a re-analysis of the deposited data

Results flagged for a closer look

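The barcodes that were not kept entered no comparison, and the 10 genes were detected in them above the limit that a count of 0 allows. Their UMIs of the 10 genes summed to 736 CPM in tumor 1, 106 in tumor 2 and 107 in tumor 3, against 1156, 326 and 246 in kept cells of the same tumors. These barcodes had a median of 925, 5352 and 3703 UMIs, of which 12.0%, 34.3% and 35.4% were mitochondrial, against 4.28%, 5.52% and 4.46% in kept cells. In tumor 1, Smad7 made up the largest part, with 1034 UMIs (220.4 CPM), and in tumors 2 and 3 it was Tgfbr1, with 698 (36.6 CPM) and 475 (32.0 CPM). Why these barcodes differ was not tested.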

How the results depend on the processing

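Over 47 fold changes of single genes and 655 recalculations, 616 kept their direction and their side of the threshold, 34 (of 16 fold changes) kept the direction but no longer passed, 4 (of 3) newly passed, and 1 changed direction: Ltbp3 in immune-like against tumor-like cells, not called, at log2 0.0543 without tumor 2 and -0.42 and -0.62 without tumors 1 and 3. Tumor as a replicate block gave 8 genes called in immune-like against tumor-like cells (Tgfb2 at -2.51, Tgfb3 at -1.91 and Ltbp1 at -2.77 newly passed) and 2 in the macrophage-like subsets. The corrected counts gave 3 genes called in immune-like against tumor-like, 5 in stromal-like against tumor-like and 4 in stromal-like against immune-like cells. In both comparisons with stromal-like cells, some genes called in the main fit had no result on these counts. Leaving out each tumor in turn gave 10 to 16 pairs of gene and class called higher. Pairs called lower numbered 6 with DESeq2, 1 with no filter on low counts and 5 with at least 20 cells per sum; 10 with limma on log2 CPM and 5 without the erythroid-like sums, alternatives chosen after seeing the data, as were near-best naming of clusters and the CAF-like class without 2 of its subclusters. Under the last, only tumor 1 kept 10 CAF-like cells, so the class could not be tested. The cause of the other changes was not tested. Shares of all genes called under these alternatives are not given here, so a change in a count is not measured against the change over all genes. Depth limits the classes with few cells: the erythroid-like sums held 23760 and 23655 UMIs, the B cell-like sum of tumor 2 held 25033, and the 10 CAF-like cells of tumor 2 held 76842, with 2 to 10 UMIs of each gene but Tgfbi, which had 0.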

Other observations

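The kept cells that no marker list named also carried these transcripts. In the 207 unnamed cells of tumor 1, Tgfb1 stood at 179 CPM, Tgfbi at 248 and Smad7 at 148. In the 10 unnamed cells of tumor 2, Tgfbr2, Tgfbr3 and Smad7 each stood at 115, from 8 UMIs each, and in the 82 of tumor 3 Tgfb1 stood at 8.03 from 1 UMI. These cells had a median depth of 807, 2970.5 and 1437.5 UMIs.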
